A study of Nasonia vitripennis with 140 samples.

Results

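Of the 15471 genes counted in the parasitoid wasp Nasonia vitripennis, 52 were lower in dsx-labelled than in GFP adult males by a rule on group means. A gene was a member when its mean level in GFP males was at least 5 CPM (counts scaled to the same library total) and at least 2 times its mean in dsx-labelled males, in 2 or more of head, thorax and abdomen. GstT2 and the genes with symbols that start with CYP, or with Or and a digit, were left out by the rule; 4 genes past the thresholds were left out in this way, of which 3 were CYP genes. At most 300 genes with the largest thorax ratio were to be kept, a number that was not reached. The levels of dsx-labelled and GFP adult males therefore chose the members, and their difference in adult males is given as a description.

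The study injected double-stranded RNA (dsRNA) against doublesex (dsx) or against green fluorescent protein (GFP), a gene the wasp does not have, at 4 µg/µl into wasps of the laboratory strain AsymCX reared on Calliphora. The groups were dsx-labelled males, GFP males, dsx-labelled females and GFP females, each with 5 libraries at each of 7 stages or body parts, 140 libraries in all. Adults had been injected on day 8 after egg laying. For each library 7 of them were collected 1 day after emergence and cut into head, thorax and abdomen. Day 7 and day 9 larvae and day 11 pupae were pools of 3 individuals taken 3 days after an injection on day 4, 6 or 8. Embryos were batches of 100, 1 day old, whose mothers had been injected on day 8, and were themselves not injected. Female batches came from mated mothers, which give 90 to 95% daughters. Every wasp, controls included, belonged to the same strain and, embryos aside, had been injected with a dsRNA. The labels do not say whether the 5 libraries of a group came from separate cultures, so the p-values measure the spread between these libraries.

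Doublesex encodes a transcription factor at the end of the insect sex-determination cascade. Its transcript is spliced differently in males and females, and the male and female proteins set sex-specific gene expression in many tissues. In Nasonia, as in other Hymenoptera, males develop from unfertilised eggs and are haploid, and females are diploid.

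The targeted gene, Dsx, was not called lower in the male libraries with the dsx label. It measured 270.4 ± 69.9 CPM in dsx-labelled and 257 ± 13.7 CPM in GFP male heads (SD, n = 5 each; edgeR adjusted p = 0.899), and 315 ± 81.6 CPM in dsx-labelled and 339.5 ± 34.8 CPM in GFP male thoraces (edgeR adjusted p = 0.606). The abdomens had 549 ± 34.9 CPM in dsx-labelled and 464 ± 18.4 CPM in GFP males (log2 difference 0.27 ± 0.09 SE, edgeR adjusted p = 0.0186), a call that was lost with RLE factors, with DESeq2 and without dsx-labelled replicate 1 or GFP replicate 1, 2 or 5. Without dsx-labelled replicate 1, heads differed by 0.21 on the log2 scale (edgeR adjusted p = 0.0391). Before adulthood Dsx was called higher with the dsx label, with a log2 difference of 0.47 in day 7 males and 0.72 in day 9 males (edgeR adjusted p = 0.000478 and 1.1e-05). In day 11 pupae it was higher too, at 302 ± 15.2 CPM in dsx-labelled and 116 ± 5.94 CPM in GFP males (edgeR adjusted p = 1.2e-06). The groups are therefore called by their label, and each direction below is that of libraries with the dsx label. Library totals ran from 59.2 M to 113 M counts.

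Of the 52 members, 21 met the thresholds in thorax and abdomen, 14 in head and abdomen, 7 in head and thorax and 10 in all of head, thorax and abdomen. Among genes with at least 5 CPM in GFP males, the ratio was met by 31 members in heads, where 0.88% of such genes met it, by 38 in thoraces, where 2.03% did, and by 45 in abdomens, where 2.39% did. The members nearest the threshold on the inside were LOC100123547, LOC100116884 and LOC100120812, with a second-largest ratio of 2.00, 2.01 and 2.04. Just outside were LOC100122971 and LOC100680169, both at 1.98, and LOC100115364 at 1.96. Symbols other than a locus number were carried by 6 members: CLGC1, CCE-D5, Mrjpl3, GstT3, GST-mic1 and SPH103. By symbol, 47 members matched RefSeq's gene list for Nvit_psr_1.1, of which 46 were protein-coding and 1, LOC107980730, was a long non-coding RNA. The spans of 35 matched members overlapped another annotated gene, and because the sources used here do not say how shared reads were counted or whether strand was used, reads of overlapping genes cannot be told apart.

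Some libraries stood apart. In GFP male heads, replicates 1 and 2 were both above the other 3 libraries for 23 members and both below them for 19. Their muscle gene Tm1, a tropomyosin, measured 683 and 676 CPM, against 1414 to 2053 CPM in the other 3. In thoraces, dsx-labelled male replicate 5 was the highest of its group for 25 members and the lowest for 10. In heads dsx-labelled male replicate 1 stood apart, with Tm1 at 679 CPM, against 1354 to 1813 CPM in the other dsx-labelled male heads. With those 4 libraries left out together, a choice made after the data were seen, 54 genes met the rule and 43 of the 52 members were among them. With each adult male library left out in turn, 44 to 62 genes met the rule; 28 members stayed in all 30 runs and 24 were lost in at least 1. Of the lists of marker genes for other cell types, the 3 hexamerins (Hex70b, Hex83 and Hex109, storage proteins of the fat body) summed to 2.13 to 3.36 CPM in dsx-labelled and 9.85 to 19.99 CPM in GFP male abdomens, and 3 of 3 were called lower there and 1 of 3 in thoraces. The ovary and egg markers nanos and oskar summed to 0.516 to 39.0 CPM in dsx-labelled and 0.477 to 1.47 CPM in GFP male abdomens, and both of 2 were called higher there. Those calls rest on dsx-labelled replicate 4, without which, a choice made after the data were seen, the sum was 0.516 to 0.896 CPM in dsx-labelled and 0.477 to 1.47 CPM in GFP male abdomens. Without it oskar was called lower (log2 difference -0.92, edgeR adjusted p = 0.00438) and nanos was not called (log2 difference 0.65, edgeR adjusted p = 0.0512). The neuronal gene Syt1 ran from 325 to 371 CPM in dsx-labelled and from 382 to 453 CPM in GFP male thoraces. The muscle genes Tm1 and Tm2 summed to 2185 to 2763 CPM in dsx-labelled and 1919 to 2885 CPM in GFP male thoraces, and the blood cell genes ppo1 and ppo3 to 3.88 to 17.8 CPM in dsx-labelled and 3.09 to 12.5 CPM in GFP male thoraces, with 1 of 2 called lower on each list. Syt1 was highest in heads, at 721 to 1174 CPM in dsx-labelled and 706 to 1218 CPM in GFP males, and nanos and oskar summed to 615 to 744 CPM in female abdomens, as those parts' labels imply. Among male heads Syt1 was lowest in the libraries that stood apart, at 721 CPM in dsx-labelled replicate 1 and 706 and 774 CPM in GFP replicates 1 and 2. The part of these shifts in the members' values was not tested. Fewer cells of a type and less RNA per cell cannot be told apart in such bulk samples.

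Across the 52 members, the median of the group means was 21.7 CPM in dsx-labelled and 44.3 CPM in GFP male heads, 14.4 CPM in dsx-labelled and 34.3 CPM in GFP male thoraces, and 22.9 CPM in dsx-labelled and 60.6 CPM in GFP male abdomens. The median log2 ratio of dsx-labelled over GFP males, with 0.1 CPM added, was -1.11 for the head, -1.27 for the thorax and -1.59 for the abdomen. Leaving out 1 library moved it between -1.199 and -0.99, between -1.58 and -1.18, and between -1.64 and -1.54 in the same parts. Of the members with at least 5 CPM in GFP males, every dsx-labelled library lay below every GFP library for 21 of 48 in heads (3.73% of all such genes), 30 of 51 in thoraces (5.37%) and 45 of 49 in abdomens (17.6%). These counts follow from the rule, which left free the remaining part of each member, as the map of ratios shows. Over all 52 members, 5 had a higher mean in dsx-labelled than in GFP males in heads, 0 in thoraces and 1 in abdomens. Among those in heads, CCE-D5 was near the floor, at 0.607 CPM in dsx-labelled and 0.193 CPM in GFP males.

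**Figure D1:**
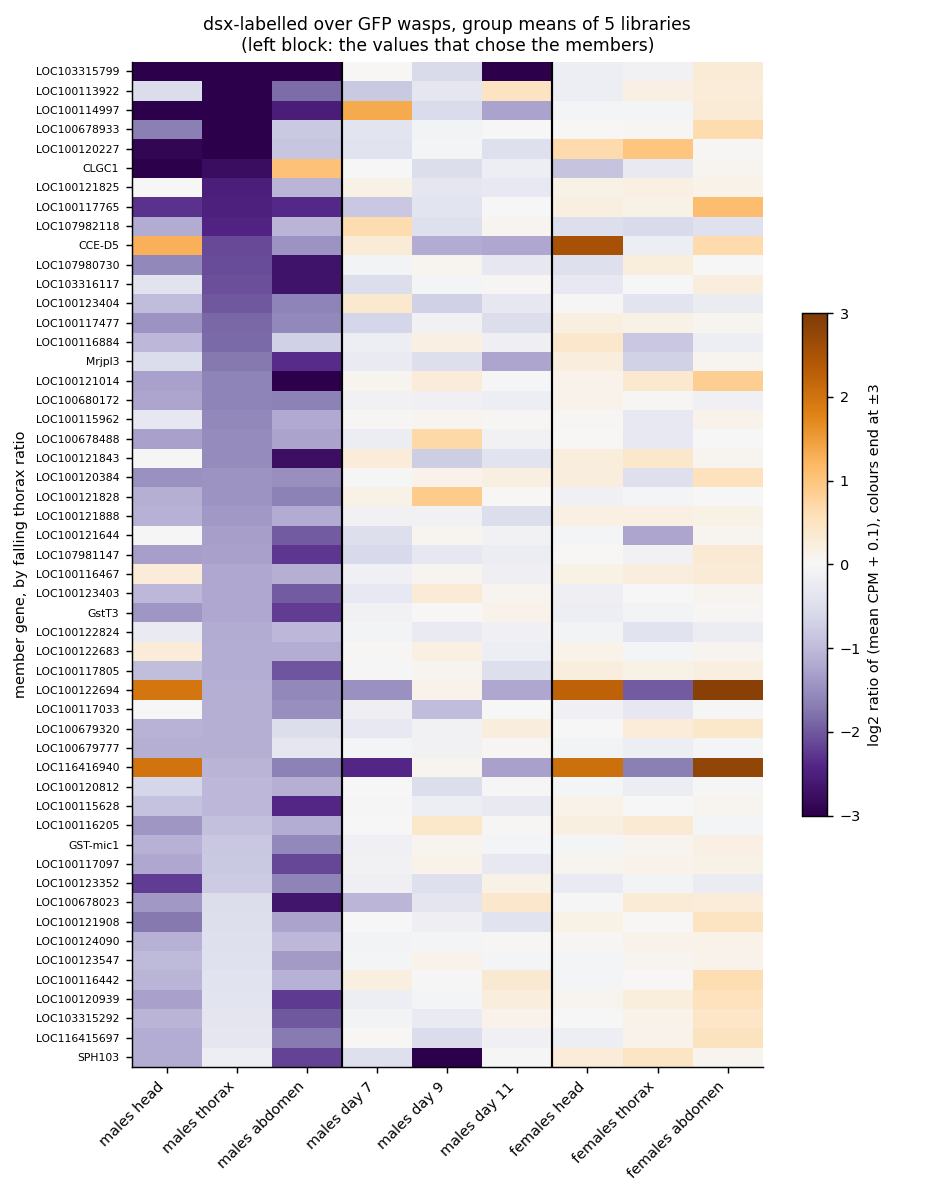
Log2 ratio of the mean CPM of dsx-labelled over GFP wasps, with 0.1 CPM added to both, for each of the 52 members (down the page, by falling thorax ratio). The left block holds the adult male values that chose the members, the middle block male larvae and pupae and the right block adult females; purple is lower and orange higher in the dsx-labelled group, and colours end at ±3. The purple of the left block fades to near white in most cells of the other blocks, with LOC103315799 in day 11 males and the pair LOC100122694 and LOC116416940 among the exceptions.

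The largest thorax ratio belonged to LOC103315799. In thoraces it had 2.06, 1.93, 3.36, 4.15 and 5.85 CPM in the 5 dsx-labelled male libraries, against 7227, 3723, 3949.7, 4708 and 5064 CPM in the 5 GFP male libraries. The groups were apart by a log2 difference of -10.47, and all 10 female thorax libraries lay below 1 CPM, with means of 0.481 CPM in dsx-labelled and 0.522 CPM in GFP females. In heads the same gene was at 0.109 ± 0.0901 CPM in dsx-labelled and 2.25 ± 1.82 CPM in GFP males (SD, n = 5 each). Its membership through the abdomen rests on 1 library: the dsx-labelled male abdomens had 0.0392, 0.119, 0.147, 0.128 and 0.254 CPM, against 1.83, 71.1, 2.37, 2.90 and 2.47 CPM in GFP male abdomens. Without GFP male abdomen replicate 2, or with group medians, the GFP level was under 5 CPM and the gene was no longer a member, although each dsx-labelled library stayed below each GFP library.

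LOC100114997 was lower in dsx-labelled males in head, thorax and abdomen. Its heads had 1939, 759.6, 712, 1000.2 and 985 CPM in dsx-labelled males, against 19496, 19446, 8447, 5839 and 4977 CPM in GFP males, a log2 difference of -3.43. In thoraces the libraries had 623, 491, 387, 523 and 267 CPM in dsx-labelled males, against 7417, 4201, 3828, 6205 and 6987 CPM in GFP males. Abdomens had 6950.2, 10461, 9742, 5466 and 4617 CPM in dsx-labelled males, against 50564, 54814, 42930.1, 38476 and 29533 CPM in GFP males, so the groups did not overlap in any of these 3 parts. This gene alone took 52.2% of the members' summed CPM in dsx-labelled and 67.1% in GFP male abdomens, shares of reads that are not scaled per length. Female levels were far lower, at 14.6 ± 5.29 CPM in dsx-labelled and 12.02 ± 2.71 CPM in GFP female abdomens, and 0.644 ± 0.193 CPM in dsx-labelled and 0.670 ± 0.185 CPM in GFP female heads. In dsx-labelled males the gene thus remained well above the female level in every part.

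**Figure D2:**
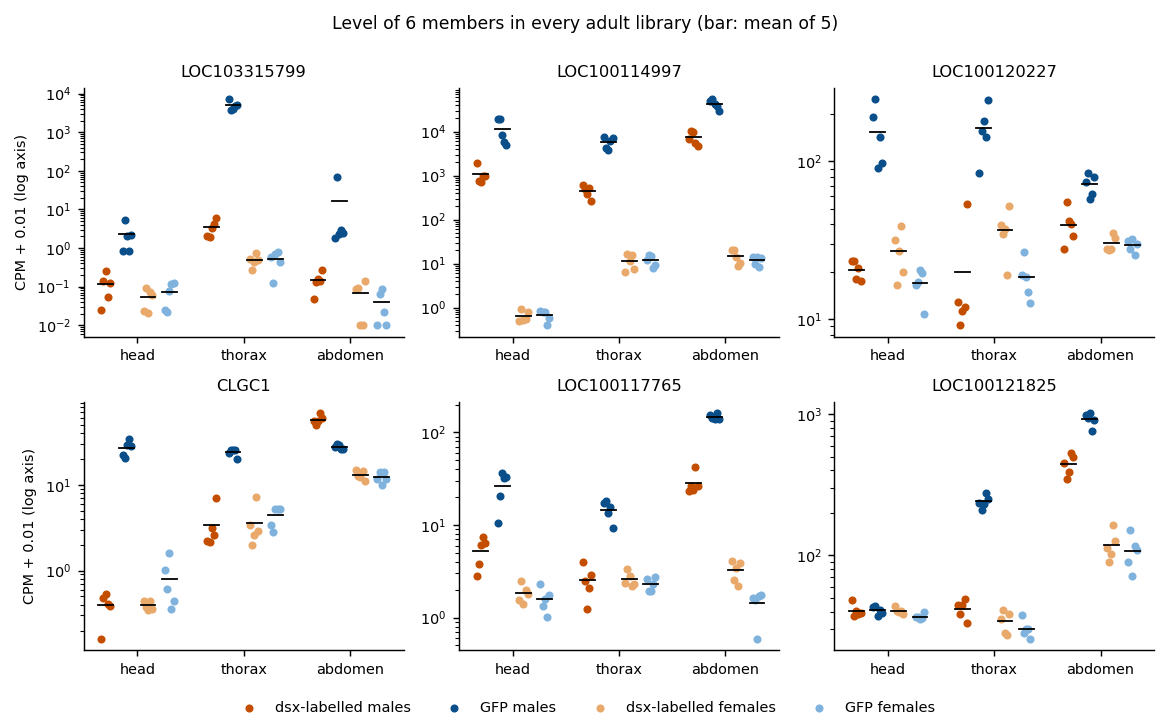
CPM + 0.01 on a log axis of 6 members in each of the 60 adult libraries; points are libraries, bars are means of 5, and colours give dsx-labelled males, GFP males, dsx-labelled females and GFP females from left to right within a part. LOC103315799 and LOC100114997 separate the male groups in all 3 parts, CLGC1 is higher in dsx-labelled than GFP male abdomens, and LOC100121825 does not separate the groups in heads.

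Other members differed between male groups in some parts and not in others. CLGC1 had 0.149, 0.469, 0.523, 0.396 and 0.377 CPM in dsx-labelled male heads, against 22.0, 20.7, 29.0, 34.5 and 28.4 CPM in GFP male heads, and 0.793 CPM on average in GFP female heads. Its abdomens ran the other way, with 54.9, 49.2, 55.6, 68.9 and 59.9 CPM in dsx-labelled males, against 27.2, 29.9, 29.0, 26.2 and 26.3 CPM in GFP males, and no library of one group reached those of the other. CLGC1 was the 1 member with at least 5 CPM in GFP male abdomens whose mean was higher in the dsx-labelled abdomens. LOC100121825 measured 40.7 ± 4.50 CPM in dsx-labelled and 40.9 ± 2.72 CPM in GFP male heads, which overlapped. Its thoraces were at 42.1 ± 6.08 CPM in dsx-labelled and 242 ± 25.2 CPM in GFP males, and its abdomens at 443 ± 73.9 CPM in dsx-labelled and 923 ± 100.1 CPM in GFP males. LOC100121843 likewise had 22.2 ± 1.65 CPM in dsx-labelled and 22.9 ± 2.56 CPM in GFP male heads, and 29.9 ± 7.25 CPM in dsx-labelled and 202 ± 21.6 CPM in GFP male abdomens.

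LOC100117765 was lower in all 3 parts, with 5.27 ± 1.91 CPM in dsx-labelled and 26.5 ± 10.8 CPM in GFP male heads, and 2.53 ± 1.02 CPM in dsx-labelled and 14.7 ± 3.58 CPM in GFP male thoraces. In abdomens it had 23.4, 26.4, 24.0, 42.7 and 26.7 CPM in dsx-labelled males, against 155, 145, 141, 163 and 139 CPM in GFP males. All male libraries were above those of GFP females there, which averaged 1.43 CPM. Together with LOC103315799, LOC100114997, LOC107980730 and LOC100120384, it was among the 5 members with the largest smallest ratio over the 3 parts. The long non-coding RNA LOC107980730 measured 1.14 ± 0.120 CPM in dsx-labelled and 5.24 ± 1.58 CPM in GFP male thoraces, and 1.12 ± 0.264 CPM in dsx-labelled and 7.70 ± 0.471 CPM in GFP male abdomens. LOC100120384 was at 12.2 ± 2.28 CPM in dsx-labelled and 34.7 ± 8.26 CPM in GFP male abdomens and stayed under 2 CPM in the heads of both groups.

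In thoraces 1 dsx-labelled library often lay apart. LOC100120227 had 12.8, 9.15, 11.3, 11.9 and 54.1 CPM in dsx-labelled males, against 84.9, 155, 181, 143 and 245 CPM in GFP males; replicate 5 of the dsx-labelled thoraces was the high one, and still below each GFP library. LOC100678933 had 0.570, 0.649, 0.742, 0.278 and 2.43 CPM in dsx-labelled males, against 5.21, 20.7, 10.5, 16.7 and 5.18 CPM in GFP males, with the same library highest. For both genes the male groups did not overlap. LOC100113922 had 0.424, 1.22, 0.466, 0.493 and 2.32 CPM in dsx-labelled males, against 5.57, 12.6, 24.3, 17.7 and 23.3 CPM in GFP males. In its heads the groups overlapped, at 13.6 ± 4.39 CPM in dsx-labelled and 19.5 ± 9.67 CPM in GFP males. LOC107982118 and LOC103316117 had thorax means of 0.923 and 2.24 CPM in dsx-labelled and 5.52 and 9.75 CPM in GFP males. LOC100123404 measured 584 ± 102 CPM in dsx-labelled and 2329.8 ± 397 CPM in GFP male thoraces.

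SPH103, GST-mic1, GstT3, Mrjpl3 and CCE-D5 carry symbols of the families matched here, and CLGC1 does not. SPH103 carries the symbol of the serine protease homologs, proteins with the protease fold that lack the catalytic residues. It had 947, 683, 857, 1079 and 1105 CPM in dsx-labelled male abdomens, against 4638, 4690.4, 4924, 3738 and 2908 CPM in GFP male abdomens, with no overlap. Its heads did overlap, at 59.8, 17.3, 18.1, 33.5 and 26.2 CPM in dsx-labelled and 136, 122, 35.05, 28.3 and 26.6 CPM in GFP males. The 2 highest GFP values were those of the libraries that stood apart, and without either of them SPH103 was no longer a member. Of the 51 genes with an SP or SPH symbol, 38 were tested in heads, 42 in thoraces and 48 in abdomens. Among those tested, edgeR called 4 higher and 2 lower in dsx-labelled than GFP male heads, 6 higher and 1 lower in thoraces and 20 higher and 5 lower in abdomens. The members within each family were chosen by this contrast. Over all genes tested, 3.97% were called higher and 4.95% lower in heads, 15% higher and 11.9% lower in thoraces, and 21.7% higher and 17.6% lower in abdomens. The median log2 difference of the 48 tested SP and SPH genes was 0.52 in abdomens, and SPH103 was among the 5 called lower there.

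Glutathione S-transferases, which couple glutathione to foreign and endogenous compounds, gave 2 members. GST-mic1 had 429.9, 419, 446, 449 and 434 CPM in dsx-labelled male abdomens, against 1457, 1476, 1349.8, 1107 and 1075 CPM in GFP male abdomens. Its membership through the head was lost without GFP male head replicate 1 or 2. It was also lost with group medians and with the 4 libraries that stood apart left out. GstT3, of the theta class, had 1.92, 2.32, 1.86, 3.07 and 2.10 CPM in dsx-labelled males, against 12.7, 11.9, 10.8, 9.70 and 9.01 CPM in GFP males, and the groups of both genes were apart. GstT3 was higher still in female abdomens, at 28.3 ± 1.54 CPM in dsx-labelled and 27.4 ± 1.85 CPM in GFP females. Of the 16 Gst genes, 1 was called higher and 4 lower in heads. Thoraces, where 15 of the 16 were tested, had 4 called higher and 5 lower, while abdomens had 7 higher and 6 lower. The lower ones include the 2 members, which the same male libraries had chosen, so their calls are not a separate test. GstT2, which the rule left out by its symbol, was also among them. The shares of all genes called are those given with SPH103. GstS2 was higher in dsx-labelled male heads, at 113 ± 11.7 CPM, against 13.4 ± 1.52 CPM in GFP males (log2 difference 3.05 ± 0.08 SE).

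Mrjpl3 is a major royal jelly-like gene of the yellow family, whose founding member in Drosophila acts in pigmentation. It had 34.8, 32.1, 32.7, 22.1 and 33.5 CPM in dsx-labelled male abdomens, against 175, 144, 167, 189 and 123 CPM in GFP male abdomens. Thoraces spread more widely and overlapped, at 16.5, 22.6, 25.4, 24.2 and 131 CPM in dsx-labelled and 38.3, 100.3, 129, 119 and 342 CPM in GFP males. Of the 16 genes with a Y- or Mrjpl symbol, 15 were tested in heads, 14 in thoraces and 15 in abdomens. By edgeR, 2 were called higher and 0 lower in heads, where Mrjpl2 and Mrjpl4 were the higher ones. Thoraces had 3 higher and 1 lower, and abdomens had 3 higher and 6 lower. CCE-D5, a carboxylesterase, an enzyme class that cleaves ester bonds, had 1.15, 0.690, 1.75, 0.936 and 23.4 CPM in dsx-labelled male thoraces, against 0.648, 6.04, 83.1, 2.45 and 31.5 CPM in GFP male thoraces. These thorax values overlapped and spread by more than their means, and without GFP male thorax replicate 3 the gene was not a member. Of the 13 CCE genes, 2 were called higher and 2 lower in heads. Thoraces had 3 called higher and 1 lower, while abdomens had 6 higher and 5 lower, CCE-D5 among the lower ones. Mrjpl3 was among the lower genes of its family in thoraces and abdomens. The same male libraries had chosen Mrjpl3 and CCE-D5, so their calls are not a separate test. The shares of all genes called are those given with SPH103. CCE-A3 was higher in abdomens, at 94.0 ± 8.63 CPM in dsx-labelled and 5.65 ± 1.74 CPM in GFP males.

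Several members lay next to each other in the reference gene table. LOC100121825, LOC100121843, LOC100121908 and LOC100121888 follow each other with 0 genes between them, and the spans of the first and the last pair of this run overlap. All 4 were lower in dsx-labelled male abdomens: LOC100121908 was at 143 ± 36.9 CPM in dsx-labelled and 346 ± 71.2 CPM in GFP males, and LOC100121888 at 6.51 ± 0.995 CPM in dsx-labelled and 14.9 ± 2.62 CPM in GFP males. In GFP female abdomens LOC100121908 was at 12.6 ± 3.45 CPM, below both male groups, and LOC100121888 at 23.9 ± 8.05 CPM, with a mean above both. LOC100122683, LOC116416940 and LOC100122694 form the other run, in which the span of LOC100122683 overlaps the other two. LOC100122683 measured 124 ± 25.6 CPM in dsx-labelled and 279 ± 34.8 CPM in GFP male abdomens.

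The pair LOC100122694 and LOC116416940 varied widely between libraries of the same group. In male thoraces LOC100122694 had 62.6, 84.5, 43.8, 32.6 and 5575 CPM in dsx-labelled and 53.7, 1269.7, 3012, 1742 and 6747 CPM in GFP libraries. LOC116416940 in the same libraries had 68.2, 93.0, 57.0, 33.4 and 5988 CPM in dsx-labelled and 69.7, 1369, 3163, 1701 and 6690.2 CPM in GFP males, so that both genes were high in the same libraries and the groups overlapped. In heads the mean of LOC100122694 was 2627 ± 2394 CPM in dsx-labelled and 676 ± 575 CPM in GFP males, and that of LOC116416940 was 3013 ± 2608 CPM in dsx-labelled and 763 ± 564 CPM in GFP males, both higher in dsx-labelled males. Of the 140 libraries, 21 had LOC100122694 above 1000 CPM, 19 had LOC116416940 above it and 19 had both. Their membership through the thorax was lost without any 1 of dsx-labelled replicates 1 to 4 or GFP replicate 5, and that of LOC116416940 also without GFP replicate 3 and with TMM factors. The pairs LOC100678933 with LOC100117765, and LOC100121014 with LOC100120939, each had 1 gene between them.

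**Figure D3:**
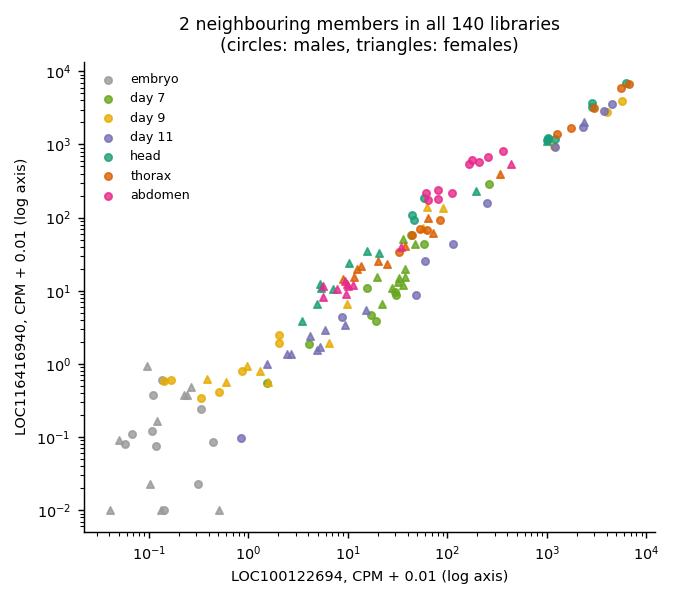
CPM + 0.01 of LOC116416940 against that of LOC100122694 on log axes in all 140 libraries, coloured by stage or part, with males as circles and females as triangles. Both genes are high in the same libraries, 19 libraries lie above 1000 CPM for both, and embryos lie at the low end.

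Set beside GFP females, whose libraries were not used by the rule, GFP males were at least 2 times higher for 29 of the 48 members with at least 5 CPM in GFP male heads, where 2.91% of all such genes were. In thoraces this held for 27 of 51, with 2.89% of all such genes, and in abdomens for 44 of 49, with 22.4%. GFP males were at least 2 times lower than GFP females for 0, 1 and 2 members in heads, thoraces and abdomens, where 1.87%, 4.27% and 32.7% of such genes were. Every GFP male library lay above every GFP female library for 26 of these members in heads (11.7% of such genes), 28 in thoraces (9.87%) and 45 in abdomens (34.3%). The GFP male libraries also chose the members, so these are levels side by side and carry no test.

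The dsx-labelled males lay closer to GFP females, a shift that the choice of members on low dsx-labelled values favours. Over the same members, dsx-labelled males were within 2-fold of GFP females for 35 in heads, 33 in thoraces and 18 in abdomens, where 96.8%, 96.7% and 45.3% of all such genes were. They were at least 2 times higher than GFP females for 8, 9 and 26 members in heads, thoraces and abdomens, against 2.18%, 1.78% and 22.9% of such genes. They were at least 2 times lower for 5, 9 and 5 members, against 0.978%, 1.48% and 31.8%. The median ratio to GFP females was 1.11 in dsx-labelled and 2.31 in GFP male heads, 0.918 in dsx-labelled and 2.22 in GFP male thoraces, and 2.40 in dsx-labelled and 6.09 in GFP male abdomens. In heads and thoraces the median member in dsx-labelled males was thus near the female level, and in abdomens above it.

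**Figure D4:**
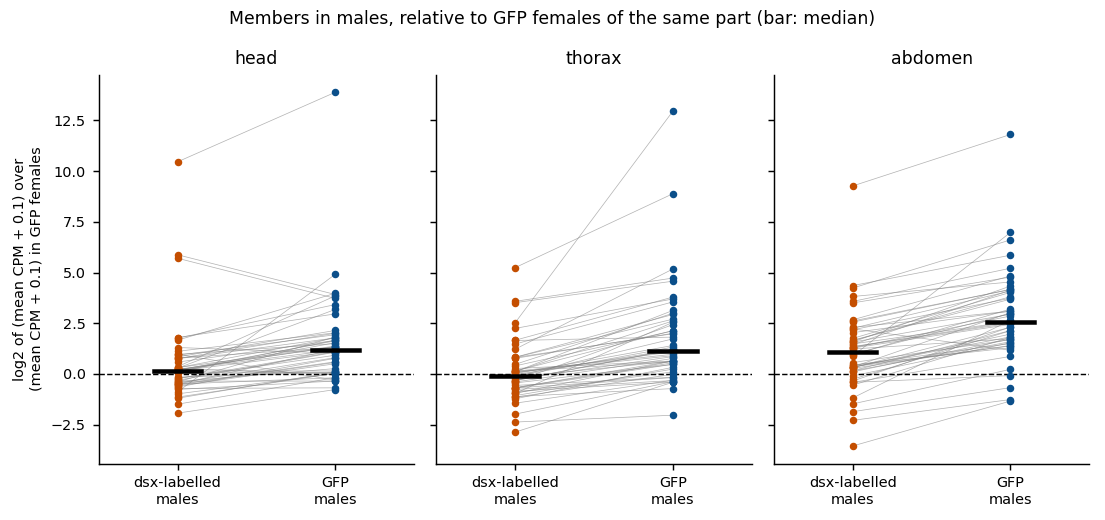
Log2 of the mean CPM + 0.1 in dsx-labelled males (left in each panel) and GFP males (right) over that in GFP females of the same part, with a grey line per member and a black bar at the median of the 52. The dashed line marks equal levels in males and GFP females; medians of dsx-labelled males lie near it in heads and thoraces and above it in abdomens.

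Some members were lower in dsx-labelled males than in GFP females. LOC116415697 was at 58.7 ± 7.93 CPM in dsx-labelled and 74.2 ± 23.8 CPM in GFP male thoraces, against 304 ± 74.2 CPM in GFP female thoraces. This gene was not a member without GFP male head replicate 1 or 2, or with the 4 libraries that stood apart left out. LOC100120939 was at 505 ± 77.2 CPM in dsx-labelled males, 664 ± 155 CPM in GFP males and 1093 ± 332 CPM in GFP females in thoraces. In abdomens it had 843, 1023, 835, 761 and 630.2 CPM in dsx-labelled males, against 4233, 4493, 3199, 3699 and 3775 CPM in GFP males. LOC100121014 in abdomens was at 27.0 ± 4.98 CPM in dsx-labelled males, 385 ± 44.1 CPM in GFP males and 61.3 ± 17.6 CPM in GFP females. With LOC107982118, LOC116415697 and LOC100120939 were the 3 members highest in GFP females relative to GFP males in thoraces, and LOC103315799, LOC100114997 and LOC100113922 the 3 lowest.

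Before adulthood the members were at lower levels, a contrast that the rule's 5 CPM in adult GFP males favours. The median of the group means was 5.15 CPM in dsx-labelled and 4.79 CPM in GFP male embryos. It was 6.39 CPM in dsx-labelled and 6.77 CPM in GFP males on day 7, and 8.36 CPM in dsx-labelled and 8.97 CPM in GFP males on day 9. Male pupae were at 11.6 CPM in the dsx-labelled and 12.5 CPM in the GFP group. In GFP males 26 of 52 members reached 5 CPM in embryos, 30 on day 7 and again on day 9, and 36 on day 11. Adult GFP males had 48 such members in the head, 51 in the thorax and 49 in the abdomen. Among the 14 GFP groups, 23 members were highest in male abdomens, 7 in male thoraces and 5 in male heads. A further 6 were highest in male larvae or pupae, 7 in adult females and 4 in female larvae or pupae. The rule favours peaks in adult males, and the same shares over all genes were not computed.

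**Figure D5:**
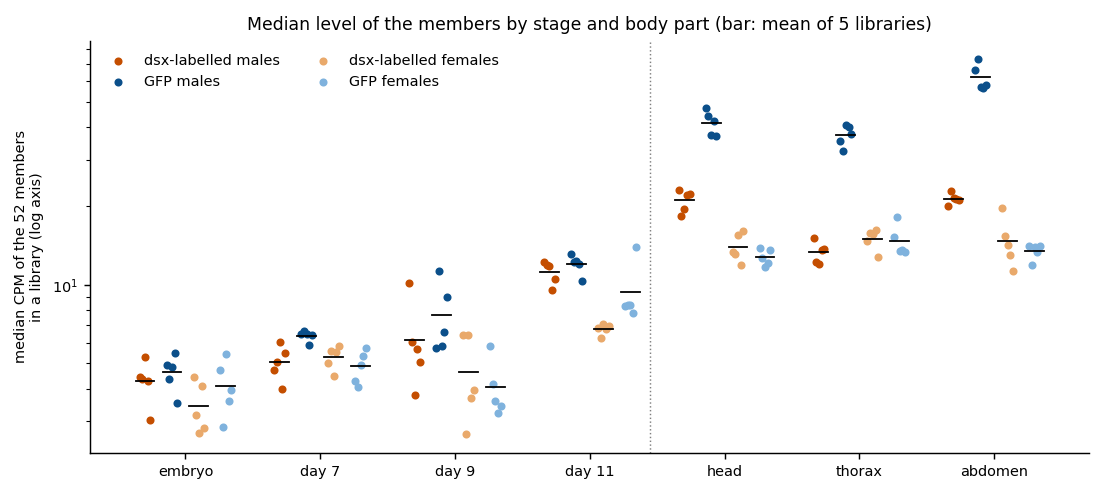
Median CPM of the 52 members in each library on a log axis, by stage or part from embryo to adult; points are libraries, bars are means of 5, and colours run from dsx-labelled males and GFP males to dsx-labelled females and GFP females. GFP males stand above the other 3 groups in adult heads, thoraces and abdomens, and the male groups overlap in embryos, larvae and pupae. The rule, which chose members on high GFP and low dsx-labelled adult male levels, favours the adult pattern.

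The dsx label in male larvae and pupae was tested in libraries that the rule did not use. In day 11 pupae, edgeR called 3 of 52 members lower in dsx-labelled than in GFP males and 0 higher, against 0.484% of all genes tested lower and 0.581% higher. The median log2 difference was -0.17 over the members and -0.01 over all genes tested. At day 9, 2 of 49 members tested were lower and 0 higher, against 2% lower and 1.41% higher of all genes. At day 7, 1 of 47 was higher and 0 lower, against 2.43% higher and 1.67% lower. The shares of members called, 5.77% in pupae, 4.08% at day 9 and 2.13% at day 7, are thus near the background in larvae. DESeq2 called 3 members at day 7, 4 at day 9 and 5 in pupae, against 7.09%, 9.87% and 1.8% of genes with an adjusted p. The counts of calls rest on few libraries. In pupae 1 member was left without any 1 of the 5 dsx-labelled libraries or without GFP replicate 4 or 5, and 6 were called when males alone were fitted. At day 9 the count was 0 without dsx-labelled replicate 4 or GFP replicate 1, 4 without GFP replicate 3, and 1 without dsx-labelled replicate 1 or GFP replicate 4 or 5. At day 7 it was 0 without dsx-labelled replicate 3 or GFP replicate 3 or 5, and 2 without dsx-labelled replicate 2 or GFP replicate 1. Of the members tested, 3 at day 7, 3 at day 9 and 1 in pupae reached the filter on low counts in males alone.

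LOC103315799 was the clearest of these in pupae. It had 0.214, 0.0776, 0.201, 0.0978 and 0.270 CPM in dsx-labelled male pupae, against 10.3, 3.97, 11.2, 4.17 and 7.18 CPM in GFP male pupae. All dsx-labelled libraries lay below all GFP libraries (log2 difference -5.46 ± 0.41 SE). Some dsx-labelled libraries fell short of the low-count filter's 0.127 CPM, so GFP males alone brought the gene past it. No p-value is therefore given for this difference. The call, which shares this limit, was made under all 15 alternatives run. LOC100114997, at 0.321, 0.375, 0.226, 0.404 and 0.309 CPM in dsx-labelled and 0.775, 0.785, 0.902, 1.01 and 1.199 CPM in GFP male pupae, differed by -1.58 ± 0.34 SE on the log2 scale (edgeR adjusted p = 0.0267), and 8 of 15 alternatives did not call it, among them the fit with the replicate number as a block (adjusted p = 0.0677). This gene, at 7447 CPM in dsx-labelled and 43264 CPM in GFP male abdomens, had 131 counts in the 5 dsx-labelled and 387 in the 5 GFP male pupal libraries. LOC100117097 was at 88.0 ± 6.85 CPM in dsx-labelled and 109 ± 10.2 CPM in GFP male pupae (log2 difference -0.36 ± 0.09 SE, edgeR adjusted p = 0.0485), and 11 of 15 alternatives did not call it.

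At day 9, CLGC1 was lower at 3.38 ± 0.372 CPM in dsx-labelled and 4.84 ± 0.241 CPM in GFP male larvae (log2 difference -0.56 ± 0.13 SE, edgeR adjusted p = 0.0220; not called under 3 of 15 alternatives). LOC100115628 was at 25.0 ± 1.61 CPM in dsx-labelled and 28.3 ± 2.46 CPM in GFP males (log2 difference -0.22 ± 0.05 SE, edgeR adjusted p = 0.0335; not called under 6 of 15 alternatives), with overlapping libraries. LOC100114997 was higher at day 7, at 0.721, 0.236, 1.07, 0.495 and 0.572 CPM in dsx-labelled and 0.240, 0.126, 0.135, 0.242 and 0.165 CPM in GFP males (log2 difference 1.81 ± 0.42 SE, edgeR adjusted p = 0.0178; not called under 4 of 15 alternatives), the opposite sign to pupae and adults. Whether the effect of the label differed between males and females was tested as an interaction, and edgeR called 0 members at day 7, day 9 and in pupae, against 0.314%, 0.542% and 0.218% of all genes tested. At an unadjusted p under 0.05 there were 7, 6 and 11 members, against 9.57%, 9.72% and 6.02% of all genes tested, and DESeq2 called 0, 1 and 1, against 1.02%, 1.49% and 0.537%. With the replicate number as a block, 1 member was called in pupae.

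Counted in both directions together, GFP males and GFP females differed before adulthood for members in shares near those of all genes. In either direction, edgeR called 34% of members tested at day 7, 46.9% at day 9 and 67.3% in pupae, against 35.2%, 49.1% and 63.8% of all genes tested. In day 7 larvae edgeR called 9 of 47 members higher and 7 lower in GFP males, against 19.7% and 15.6% of all genes tested. At day 9 it called 19 of 49 higher and 4 lower, against 26.7% and 22.3%, a lean to males that the pooled share does not show. In pupae 19 of 52 were higher and 16 lower, against 31.6% and 32.2%. The median log2 difference over the members was 0.07 at day 7, 0.50 at day 9 and 0.13 in pupae. Over all genes tested it was 0.01, -0.005 and -0.001. LOC100117765 was higher in GFP males at every pre-adult stage tested. It had 63.2, 46.5, 57.8, 58.8 and 63.8 CPM in GFP male and 0.642, 0.482, 0.415, 0.196 and 0.399 CPM in GFP female larvae at day 9 (log2 difference 7.18 ± 0.25 SE, edgeR adjusted p = 8.4e-15). In pupae it measured 52.1 ± 1.69 CPM in GFP males and 3.59 ± 0.965 CPM in GFP females, and 52.1 ± 2.98 CPM in dsx-labelled males, close to GFP males.

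LOC100678933, with 1 gene between it and LOC100117765, had 205 counts in the GFP male and 0 in the GFP female libraries at day 7, and 365 in the GFP male and 0 in the GFP female libraries at day 9. Against a limit of 3 counts over the female group, it was at least 60.0-fold higher in GFP males at day 7 and at least 107-fold at day 9. LOC100678023 was at 0.443 ± 0.163 CPM in GFP males and 0.0109 ± 0.0117 CPM in GFP females at day 7. In pupae LOC103315799 was at 7.37 ± 3.36 CPM in GFP males and 0.0469 ± 0.0338 CPM in GFP females (log2 difference 7.30 ± 0.48 SE). Males alone brought LOC100678023 at day 7 and LOC103315799 in pupae past the low-count filter. No p-value is therefore given for these sex differences. CCE-D5 in pupae was at 66.6 ± 79.9 CPM in GFP males and 4.67 ± 7.48 CPM in GFP females, with an SD above the mean in both groups.

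Before adulthood other members had less in GFP males than GFP females, the reverse of their adult levels in some cases. LOC103316117 had 1.45, 1.28, 1.13, 1.14 and 1.27 CPM in GFP male and 10.7, 10.9, 12.7, 9.96 and 12.5 CPM in GFP female pupae (log2 difference -3.10 ± 0.17 SE, edgeR adjusted p = 4.7e-12). In adult thoraces the same gene measured 9.75 ± 2.49 CPM in GFP males and 0.741 ± 0.265 CPM in GFP females, and in abdomens 5.97 ± 0.630 CPM and 0.245 ± 0.0840 CPM. Adult heads were not reversed, with means of 7.42 ± 3.09 CPM in GFP males and 9.46 ± 0.612 CPM in GFP females. LOC100120939 was at 0.0626 ± 0.0564 CPM in GFP male and 2.09 ± 0.568 CPM in GFP female pupae, and LOC100123352 at 0.0505 ± 0.0308 CPM in GFP male and 0.727 ± 0.335 CPM in GFP female pupae. LOC107982118 was lower in GFP males at day 7, at 5.93 ± 3.36 CPM against 26.3 ± 6.96 CPM in GFP females (edgeR adjusted p = 0.00146). LOC100121828 was at 39.1 ± 17.5 CPM in GFP males and 116 ± 29.9 CPM in GFP females at day 9 (edgeR adjusted p = 0.000605).

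In adult females edgeR called 0 of the 52 members for the dsx label in heads, 0 in thoraces and 0 in abdomens, against 0.0412%, 0.017% and 0.00809% of all genes tested. With so few calls over all genes, these counts cannot show that the members were unchanged. At an unadjusted p under 0.05 there were 4, 3 and 10 members, against 4.84%, 9.34% and 9.22% of all genes tested, and DESeq2 called 0, 0 and 1, against 0.214%, 0.797% and 0.523%. Of the members under that unadjusted limit by edgeR, 1 in heads, 1 in thoraces and 0 in abdomens were lower in dsx-labelled females. The median log2 difference of dsx-labelled over GFP females over the members was -0.01 in heads, -0.03 in thoraces and 0.10 in abdomens. It was below 0 for 27, 28 and 13 of the 52 members in these parts. The smallest adjusted p belonged to LOC100117765 in abdomens, with 4.10, 2.54, 3.40, 2.20 and 3.86 CPM in dsx-labelled and 1.61, 1.52, 0.576, 1.68 and 1.74 CPM in GFP females (log2 difference 1.17 ± 0.22 SE, edgeR adjusted p = 0.0766), where all dsx-labelled libraries lay above the GFP ones.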

How the data were processed

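Per the labels' protocols, RNA libraries made with the NEBNext Ultra RNA kit were read from both ends, 150 bp each, on a NovaSeq. The authors deposited 1 table of counts, whole numbers of reads per gene and library, not normalized. The submitters' processing notes name HISAT2 2.0.5 and HTSeq 0.6.1; genome build, annotation and strand setting were not given in the sources used here, so no coordinates are printed. Each of the 140 columns matched 1 sample by its label, and 0 columns were left over. The libraries held 59.2 M to 113 M counts, with a median of 74.8 M. No replicate pair of the 280 compared agreed within sampling noise.

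CPM was computed as counts over the column total. The members and the lists of families and markers were chosen with earlier results of these data known. The gene table gives no product names, so families and markers were matched by symbol. Sperm, eye and gut markers and the other families, among them the CYP and Or genes that the rule left out, were not analysed here. The 20 libraries of a stage or part entered 1 fit, using TMM factors, filterByExpr with a minimum count of 10 and edgeR's quasi-likelihood test (version 4.0.16; R 4.3.3), with group means and without a replicate block. P-values were adjusted by Benjamini-Hochberg over all genes tested, and a gene was called below 0.05. Fitted log2 differences use a prior count of 0.125. Printed adjusted p-values are from edgeR unless DESeq2 1.42.0 is named. The fits were tested on simulated data first.

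Genes were named by a rule: the 12 largest thorax ratios, members called before adulthood or in females, family symbols, the highest and lowest levels in females relative to males, the 5 with the largest smallest ratio, the longest runs of neighbours, the 5 highest GFP male means, the extremes of the GFP sex difference, and Dsx. Since the limit of 300 members was not reached, the genes nearest the threshold stand in for those nearest the limit. Family genes outside the 52, members given only as examples, and those named under other observations, were chosen after their values were seen.

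Alternatives were RLE factors, no filter, DESeq2, a replicate block, only the groups compared, and each replicate left out. Of 90 pairs of libraries with the same replicate number, 32 had deviations correlated above 0.1. The one comparison with every pair above 0.1 was dsx-labelled with GFP males in pupae, from 0.143 to 0.608, where the numbers are taken as pairing the libraries. The main pupal calls nevertheless come from the fit without a block, and the fit with it is given as an alternative.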

Additional observations from a re-analysis of the deposited data

Results flagged for a closer look

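Single libraries far from the other 4 of their group were looked for in 64 groups, the summed level of the members in each group and the first members in adult males; chance alone marks about 1 in 20 such groups. The summed level of the members was 15519 CPM in dsx-labelled male thorax replicate 5, against 3266 CPM in the lowest library of that group. In the same library LOC100678933 was at 2.43 CPM, LOC100120227 at 54.1 CPM and CLGC1 at 6.92 CPM, each the highest of the 5 dsx-labelled thoraces. In dsx-labelled male head replicate 1, LOC100113922 was low at 6.02 CPM and LOC100114997 high at 1939 CPM. LOC103315799 was at 71.1 CPM in GFP male abdomen replicate 2, above the other 4. Before adulthood the summed level stood apart at 13029 CPM in dsx-labelled male day 9 replicate 1, at 10488 CPM in GFP male day 9 replicate 5 and at 9170.3 CPM in GFP female day 11 replicate 5.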

How the results depend on the processing

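The members' counts of calls were recomputed under each alternative. For the dsx label in males, the count was 1 at day 7, 2 at day 9 and 3 in pupae. DESeq2 gave 3, 4 and 5. Fitting only the groups compared gave 0 at day 7 and 6 in pupae. Leaving out 1 library gave 0 to 2 at day 7, 0 to 4 at day 9 and 1 to 3 in pupae. The interaction was called for 0 members, except for 1 by DESeq2 at day 9, 1 by DESeq2 in pupae and 1 with the replicate block in pupae. Adult females gave 0 members, except for 1 by DESeq2 in abdomens, and the GFP sex differences kept within 1.5 times their counts under each alternative run. The cause of these changes was not tested. With the replicate number as a block, day 9 gave 1 member and pupae 3; it changed LOC100114997 in pupae and the pupal interaction as given above, and moved no other count of members by over 1.5 times. The log2 difference of Dsx was 0.06 in male heads and ran from -0.0271 to 0.21 with 1 library left out. In male abdomens it was 0.27, with 0.22 under RLE factors, 0.22 by DESeq2 and 0.20 to 0.29 with 1 library left out. The number of genes that met the rule was 52 with 1 CPM added to the thorax ratio, 53 with TMM factors (50 shared) and 51 with group medians (41 shared), and 44 to 62 with 1 library left out. Dsx in male heads, which was not called, changed sign without dsx-labelled replicate 4; of the members named with a test, none changed sign in any alternative run. LOC100114997 and LOC103315799 before adulthood rest on few counts, 69 in dsx-labelled male pupae for LOC103315799.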

Other observations

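Some members had high levels before adulthood, where the dsx label was not called for them; they were singled out after their values were seen. LOC100678488 reached 704 ± 225 CPM in dsx-labelled males, 437 ± 188 CPM in GFP males, 800.2 ± 319 CPM in dsx-labelled females and 894 ± 383 CPM in GFP females at day 9 (SD, n = 5 each), but stayed at or under 27.4 CPM as a group mean in adult males. LOC100117033 in day 11 pupae was at 1379.7 ± 207 CPM in dsx-labelled males, 1384 ± 69.2 CPM in GFP males, 418 ± 167 CPM in dsx-labelled females and 410.0 ± 37.3 CPM in GFP females, a difference between GFP males and GFP females of 1.83 ± 0.21 SE on the log2 scale (edgeR adjusted p = 2.8e-07). LOC100115962 in pupae was at 1650.4 ± 171 CPM in dsx-labelled males, 1623 ± 117 CPM in GFP males and 2436 ± 142 CPM in GFP females.

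SPH103 was also measured in larvae. At day 7 it had 48.9, 46.4, 30.03, 57.5 and 53.9 CPM in dsx-labelled males and 68.4, 65.4, 77.2, 56.8 and 58.4 CPM in GFP males, against 31.4, 13.5, 10.5, 33.6 and 14.5 CPM in GFP females, and the GFP sexes differed by 1.48 ± 0.27 SE on the log2 scale (edgeR adjusted p = 0.000244). At day 9 its mean in GFP males was 1.63 CPM, carried by few libraries (0.0240, 7.37, 0.0111, 0.650 and 0.114 CPM), against 0.0623 CPM in GFP females.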
